A study of Mus musculus with 8 samples.

Results

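The genes described here are those of the proteasome: every listed gene whose symbol is Psm followed by a letter from a to g, a number and at most 1 further letter. The rule took 49 of 50763 listed genes, and 48 of the 49 passed the filter on low counts that left 16608 genes to test. Of the 49, 5 encode the immunoproteasome and its activator (Psmb8, Psmb9, Psmb10, Psme1 and Psme2), and the other 44 encode standard subunits, other regulators and assembly chaperones. RNA came from live phagocytes that were positive for CD45.2 and for mCherry, sorted from mouse brains on day 23 after GL261-mCherry-EGFP glioma cells had been placed in the brain. GL261 is a mouse glioma line, CD45.2 marks leukocytes, and mCherry is a fluorescent protein of the implanted line. Hosts were C57BL/6 wild-type mice (WT) or muMT mice, which carry a disrupted IgM heavy chain membrane exon in all cells and lack mature B cells. Mice received isotype IgG or an antibody to CTLA-4, a checkpoint receptor that restrains T cells. The 4 groups (each host with each antibody) had 2 libraries each, all from mice with the same tumour, and 24784639 to 31289104 reads in genes per library. Whether a group's libraries stem from separate mice or from pools is not given in the labels, so a p-value here reflects only the spread of these libraries, which may be technical.

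The proteasome is the protease that degrades proteins tagged with ubiquitin. Its 20S core is a stack of rings of alpha and beta subunits, of which Psmb5, Psmb6 and Psmb7 are the standard catalytic ones, and its 19S cap of ATPase (Psmc) and non-ATPase (Psmd) subunits recognises, unfolds and feeds in the substrate. Interferon gamma induces Psmb8, Psmb9 and Psmb10, which take the places of Psmb5, Psmb6 and Psmb7 in newly built cores, and Psme1 and Psme2, which form the activator ring PA28. The resulting immunoproteasome is known for making peptides suited to MHC class I, and phagocytes carry it without infection as well. When proteasome activity falls short, the factor NFE2L1 is known to raise the standard subunit genes together through antioxidant response elements.

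Of the immunoproteasome genes, Psmb8, Psmb9, Psme1 and Psme2 lie beside or near genes of the same pathway. Psmb10 does not, and lies on chromosome 8 between Ctrl and Lcat. All immunoproteasome genes rose in both hosts, and promoter sequences are shown for some of them. These are Psmb8 and Psme1, which hold a match to a motif given below, and Psmb9, which holds none. The windows of Psmb10 and Psme2, also without a match, are not shown. On chromosome 17 the order of genes is Psmb9, Tap1, Psmb8, Tap2, where Tap1 and Tap2 form the peptide transporter, and on chromosome 14 it is Psme1, Emc9, Psme2, Rnf31, Irf9. Psmb9 and Tap1 start 225 bases apart on opposite strands and share the sequence between them. The sequences below are RefSeq's on GRCm38.p6, an older build than the mm39 named for these counts, and run 5′ to 3′ on the strand of the named gene. Capitals mark a match to a gamma-activated site (GAS, TTCNNNGAA) in Psmb8 and to an interferon-stimulated response element (ISRE, GAAA, any 2 bases and GAAA, here on the other strand) in Psme1.
Psmb8, the 250 bases before its start, chr17:34197945-34198194, plus strand: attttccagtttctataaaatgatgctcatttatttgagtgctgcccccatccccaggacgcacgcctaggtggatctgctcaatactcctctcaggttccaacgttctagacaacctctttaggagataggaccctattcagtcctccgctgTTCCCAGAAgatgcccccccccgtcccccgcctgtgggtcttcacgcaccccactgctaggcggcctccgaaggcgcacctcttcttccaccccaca
Psmb9, the bases between its start and that of Tap1, chr17:34187331-34187555, minus strand: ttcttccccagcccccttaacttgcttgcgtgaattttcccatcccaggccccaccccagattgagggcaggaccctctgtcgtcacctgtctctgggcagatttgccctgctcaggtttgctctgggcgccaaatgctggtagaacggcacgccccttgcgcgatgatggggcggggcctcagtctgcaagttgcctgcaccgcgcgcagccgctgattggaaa
Psme1, 30 bases from just before its start, chr14:55578493-55578522, plus strand: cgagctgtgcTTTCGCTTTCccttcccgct
The GAS match begins 97 bases before the start of Psmb8, and the ISRE match begins at base 10 after the start of Psme1. RefSeq windows (250 bases before to 50 after a start) were given for 41 of the 49 genes, 44 windows in all. Both strands were searched, and each motif was counted on its own, also where matches of different motifs overlap. No proteasome gene held more than 1 of the 3 motifs. ISRE matches stood in 11.4% of the 44 windows (those of Psmb3, Psmd4, Psmd9, Psme1 and Psmg4) and in 3.44% of all 32851 windows. GAS matches stood in 6.82% (Psmb8, Psmd2 and Psmg1) against 8.3% of all windows. The antioxidant response element (ARE, TGANTCAGC) stood in 2.27% (Psmb5 alone) against 1.19%. The windows of Psmb9, Psmb10 and Psme2 hold none of these letters. A match is a string of letters and was not tested for binding.

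Macrophage and microglia markers dominated all libraries: the 10 listed genes summed to 10675 to 14878 CPM (read counts scaled to library size with TMM factors), and all 10 were detected in each group. Of the other lists, cycling genes summed to 431 to 558 CPM, fibroblast and mural genes to 131 to 364, endothelial genes to 142 to 287, neutrophil genes to 97.9 to 127, and T cell, NK cell, B cell, dendritic cell, oligodendrocyte, astrocyte and neuron lists to at most 82.8 each. Jchain had no reads in muMT isotype and Ly6g none in WT anti-CTLA-4. Reads outside all genes made up 20.4% to 20.8% of muMT isotype, 18.6% to 18.7% of muMT anti-CTLA-4, and, in WT, 28.4% to 29.5% of isotype against 33.1% to 33.3% of anti-CTLA-4 libraries. In bulk RNA, fewer cells of a type and less RNA per cell cannot be told apart.

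Nearly all proteasome genes were well measured. Per kilobase of exon, in the muMT isotype libraries, the highest level was that of the catalytic subunit Psmb6, at 269.5 CPM per kilobase, followed by Psme1 at 145, Psmb8 at 130.3 and Psmb3 at 119. Alpha ring genes ran from 40.9 (Psma3) to 107 (Psma1), base ATPases from 40.1 (Psmc2) to 72.4 (Psmc1) and the 20S assembly chaperones Psmg1 to Psmg4 from 6.94 to 20.7 on the same scale. Ranks between genes depend on the exon length used, which joins the exons of all listed transcripts of a gene. Psma3, with 2846 bases, had 116 CPM on average in muMT isotype, above Psma5, with 1239 bases and 81.2 CPM. Psmb5, the standard chymotrypsin-like subunit, was low for a core subunit, with 22.7 to 33.7 CPM per kilobase over the 4 groups, while its immune counterpart Psmb8 had 130.3 to 202. At the other end stood genes of other tissues. Psma8, the alpha subunit of male germ cells, had 2.16 to 3.57 CPM, and Psmb11, the catalytic subunit of thymus epithelium, had 3 reads in 1 muMT isotype library, 1 in each of 3 other libraries and none in the remaining 4, and was not tested. Zero reads in a library allow at most 3, which is 0.0959 to 0.121 CPM at these depths.

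The 5 immunoproteasome genes were higher in anti-CTLA-4 than in isotype libraries in both hosts, and lowest in muMT isotype. Psmb8, the chymotrypsin-like subunit, had 210.4 and 214 CPM under isotype and 331 and 328 under anti-CTLA-4 in muMT hosts, and 278 and 248 against 310.3 and 314 in WT hosts. Psmb9, the replacement for Psmb6, had 60.6 and 60.4 CPM under isotype and 87.7 and 90.9 under anti-CTLA-4 in muMT hosts, and 80.4 and 74.4 against 96.9 and 102 in WT hosts. In each host the isotype and anti-CTLA-4 values of both genes did not overlap. Psmb10, the trypsin-like subunit, had 90.9 and 87.5 CPM under isotype and 158 and 154 under anti-CTLA-4 in muMT hosts, and 122 and 110.5 against 142 and 145 in WT hosts. Psme1, which encodes PA28 alpha, had 161 and 163 CPM under isotype and 237 and 239.9 under anti-CTLA-4 in muMT hosts, and 188 and 176 against 214 and 209 in WT hosts, and here too each isotype value lay under each anti-CTLA-4 value of its host. Psme2, which encodes PA28 beta, had 113 and 106 CPM under isotype and 196 and 199 under anti-CTLA-4 in muMT hosts, and 143 and 134 against 199 and 195 in WT hosts. The Psme2 values of the anti-CTLA-4 groups of both hosts overlapped, although the isotype groups did not.

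**Figure D1:**
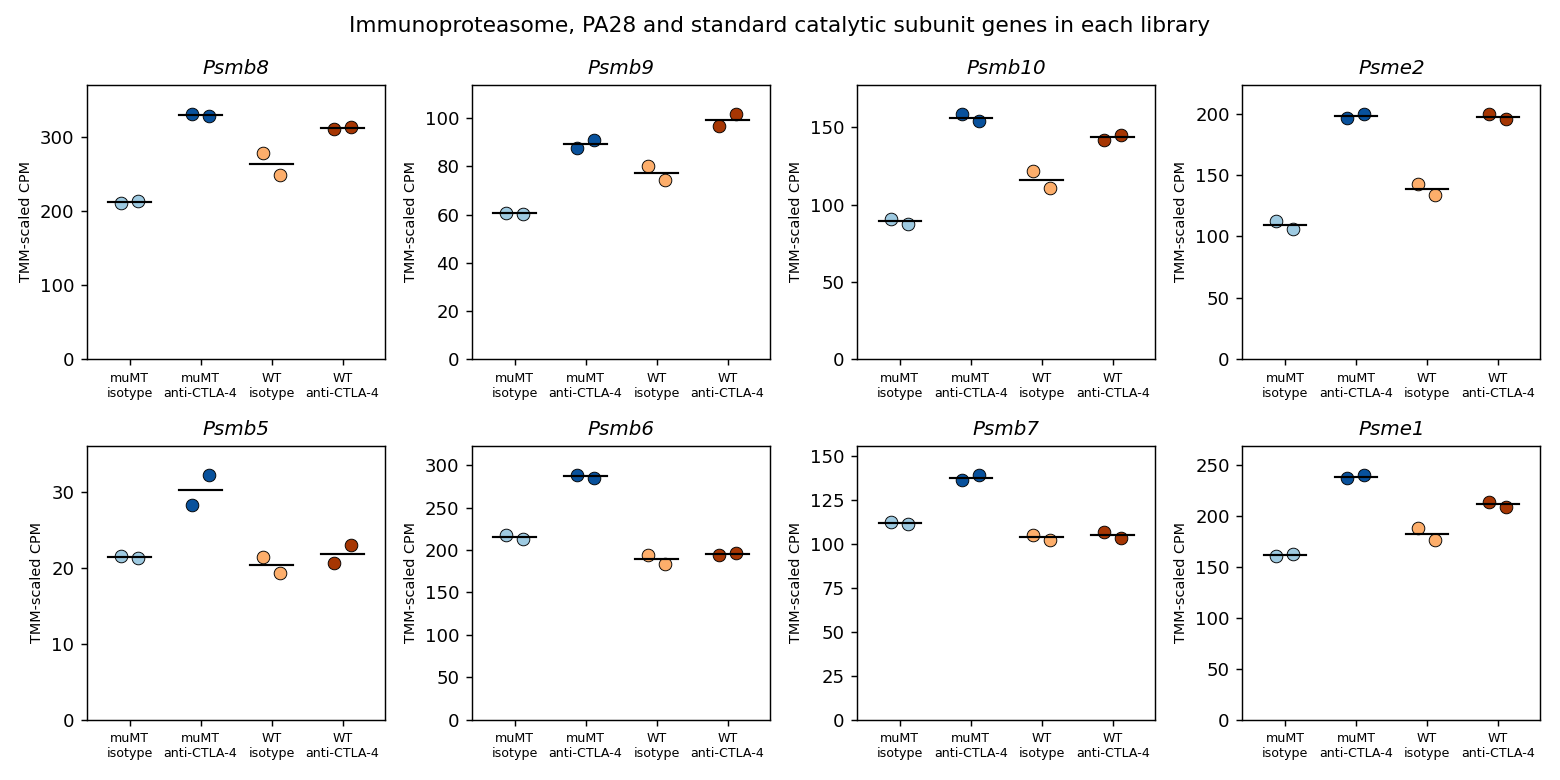
TMM-scaled read counts (CPM, vertical axis from 0) of 8 genes in the 4 groups; each point is 1 library and each bar the mean of 2. Psmb8, Psmb9, Psmb10, Psme1 and Psme2 rise with anti-CTLA-4 in both hosts, while Psmb5, Psmb6 and Psmb7 rise in muMT, Psmb6 from 215 to 287 CPM on average, and their WT groups overlap.

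The standard catalytic partners followed another course in WT hosts. Psmb5 had 21.6 and 21.4 CPM under isotype and 28.3 and 32.3 under anti-CTLA-4 in muMT hosts, and 21.5 and 19.4 against 20.7 and 23.0 in WT hosts. Psmb6, whose product that of Psmb9 replaces, had 218 and 213 CPM under isotype and 288 and 285 under anti-CTLA-4 in muMT hosts, and 195 and 184 against 194 and 197 in WT hosts. Psmb7, the partner of Psmb10, had 113 and 112 CPM under isotype and 136 and 139 under anti-CTLA-4 in muMT hosts, and 105 and 102 against 107 and 103 in WT hosts. All 3 were highest in muMT anti-CTLA-4, where no library overlapped any other group. The same held for Psmb8, Psmb10 and Psme1, and how many of all genes do so was not counted. In WT hosts the isotype and anti-CTLA-4 values of Psmb5, Psmb6 and Psmb7 each overlapped, unlike those of the immunoproteasome genes.

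In WT hosts, anti-CTLA-4 raised the immunoproteasome genes and few others. Differences are log2 fold changes of anti-CTLA-4 against isotype, from edgeR's quasi-likelihood test, with Benjamini-Hochberg adjustment over all 16608 genes and a call at an adjusted p under 0.05. All 5 immunoproteasome genes were called higher, and 4 of the 43 other tested members were, against 14.7% of all genes called higher. None of the 48 was called lower, against 15.9% of all genes. Psme2 rose most, by 0.51 ± 0.049 (SE), adjusted p = 8.65e-10, a 1.43-fold change. Psmb9 rose by 0.36 ± 0.055 (SE), adjusted p = 4.85e-06, and Psmb10 by 0.31 ± 0.052 (SE), adjusted p = 2.43e-05. Psmb8 rose by 0.24 ± 0.048 (SE), adjusted p = 0.000174, and Psme1, the smallest of the 5, by 0.22 ± 0.047 (SE), adjusted p = 0.000498. With a minimum fold of 1.1 Psme1 was not called (adjusted p = 0.0619). The median change was 0.31 for these 5 genes and 0.02 for the 43 others, while the median of all genes tested lay between -0.0096 and 0.014 in the 5 comparisons.

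The other members called in WT were the alpha subunit genes Psma5 (0.26 ± 0.053 (SE), adjusted p = 0.000263) and Psma4 (0.18 ± 0.052 (SE), adjusted p = 0.00985), the lid subunit gene Psmd11 (0.21 ± 0.06 (SE), adjusted p = 0.00803) and Psmd10, which encodes the base chaperone gankyrin (0.28 ± 0.078 (SE), adjusted p = 0.00562). Psma5 went from 89.7 and 89.4 CPM in the isotype libraries to 108 and 106 in the anti-CTLA-4 libraries. Psmb5, Psmb6 and Psmb7 showed 0.10 ± 0.088, 0.048 ± 0.046 and 0.018 ± 0.05 (log2, SE), none of them called. The base ATPases Psmc1 to Psmc6 and the structural beta subunits Psmb1 to Psmb4 had no call among 6 and 4 genes, with medians of 0.053 and -0.027. Psme3, which encodes the nuclear activator PA28 gamma, stood at -0.15 ± 0.063 (SE, adjusted p = 0.0634), opposite in sign to Psme1 and Psme2. Psma4 lost its call when WT isotype replicate 2 was left out (adjusted p = 0.0534) or either WT anti-CTLA-4 library (0.0605 and 0.0957), as did Psmd11 when isotype replicate 1 (0.0807) or anti-CTLA-4 replicate 2 (0.0997) was. Without either muMT isotype library, though no WT library is then missing, 14 members were called in WT, 2 of them lower, and Psme3 was one of these at an adjusted p of 0.0376 and 0.0382. Marker genes of other cells moved in WT too. Cycling genes fell (5 of 6, from 528 to 558 CPM in sum to 441 to 445), and fibroblast and mural genes (4 of 6), neutrophil genes (3 of 5) and oligodendrocyte genes (3 of 6) were called lower more often than higher, while endothelial genes (4 of 6), T cell genes (3 of 8) and NK cell genes (3 of 8) were called higher more often than lower. The macrophage sum went from 10675 to 10685 CPM to 14685 to 14878, with Lyz2 from 4808 to 9137 on average and 4 of 10 genes called higher and 3 lower. The part of these in the proteasome result was not tested.

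In muMT hosts, anti-CTLA-4 raised nearly the whole proteasome. Of the 48 tested members 42 were called higher, against 22.1% of all genes, and none lower, against 20.4%. The 5 immunoproteasome genes again had the higher median, 0.63 against 0.36 for the 43 others, of which 37 were called. Psme2 rose by 0.86 ± 0.05 (SE), adjusted p = 8.05e-15, a 1.81-fold change, and Psmb10 by 0.81 ± 0.053 (SE), adjusted p = 1.3e-13, or 1.75-fold. Psmb8 rose by 0.63 ± 0.048 (SE), adjusted p = 4.87e-12, Psmb9 by 0.56 ± 0.056 (SE), adjusted p = 1.43e-09 and Psme1 by 0.56 ± 0.047 (SE), adjusted p = 3.57e-11. The alpha ring genes Psma7, Psma4 and Psma5 had values of the size of Psmb9 and Psme1.

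Among the core genes, all 7 of the alpha ring, all 4 structural beta genes and all 3 standard catalytic genes were called higher, with medians of 0.53, 0.37 and 0.42. Psma7, Psma4, Psma5 and Psma3, of the ring that gates the core, led with 0.58 ± 0.049, 0.58 ± 0.051, 0.56 ± 0.052 and 0.53 ± 0.047 (log2, SE). Psma7 had 111 and 109 CPM in muMT isotype and 167 and 162 in muMT anti-CTLA-4. Its WT values, 123 and 115 in isotype and 128 and 128 in anti-CTLA-4, lay between these. Psmb5 rose by 0.49 ± 0.083 (SE), adjusted p = 1.46e-05, Psmb6 by 0.42 ± 0.045 (SE), adjusted p = 8.68e-09 and Psmb7 by 0.30 ± 0.049 (SE), adjusted p = 1.11e-05.

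The cap rose with the core. All 6 base ATPase genes were called higher (median 0.34), from 0.15 for Psmc1 to 0.39 for Psmc3, and 10 of 11 non-ATPase genes (median 0.39). Psmd1, a scaffold of the base, rose by 0.46 ± 0.048 (SE), and Psmd14, the deubiquitinase of the lid, by 0.43 ± 0.05 (SE). Psmd8, a small lid subunit, was the non-ATPase gene without a call, at 0.10 ± 0.047 (SE), adjusted p = 0.0725. In all, 30 of the 31 standard core and cap genes were called higher in muMT, where 22.1% of all genes were. In WT 3 of 31 were, where 14.7% of all genes were. Of the 20S assembly chaperones Psmg1, Psmg2 and Psmg3 rose, Psmg3 by 0.61 ± 0.13 (SE), and Psmg4 was not called (0.22 ± 0.11). Among the base chaperones Psmd5 and Psmd10 rose, by 0.26 ± 0.074 and 0.36 ± 0.077 (SE), while Psmd9 stood at 0.079 ± 0.092.

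Of the alternative regulators, Psme3 and Psme4 were called in muMT and Psmf1 was not. Psme3 rose by 0.27 ± 0.061 (SE), adjusted p = 0.000469. Psme4, which encodes the activator PA200, rose by 0.14 ± 0.047 (SE), adjusted p = 0.0146, but it was not called without muMT anti-CTLA-4 replicate 1 (adjusted p = 0.122) or when scaled by library size alone (0.127). Psmf1, which encodes the inhibitor PI31, was not called, at 0.20 ± 0.082 (SE), adjusted p = 0.0546, and was called without muMT isotype replicate 1 (0.31, adjusted p = 0.00636). Other signals moved with this comparison. Fibroblast and mural genes fell, 6 of 6, from 360 to 364 CPM in sum to 131. Endothelial genes went from 142 to 146 CPM to 243 to 249, with 2 of 6 called higher and 3 lower, dendritic cell genes from 33.4 to 34.6 CPM to 47.0 to 51.7 (3 higher and 1 lower of 8), and cycling genes from 431 to 454 CPM to 524 to 525 (3 of 6 higher). Oligodendrocyte genes (5 of 6), neutrophil genes (3 of 5) and T cell genes (3 of 8) were called lower more often than higher, and the macrophage sum went from 11459 to 11811 CPM to 13717 to 13870, with 3 of 10 genes called higher and 4 lower. Their part in the proteasome result was not tested.

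**Figure D2:**
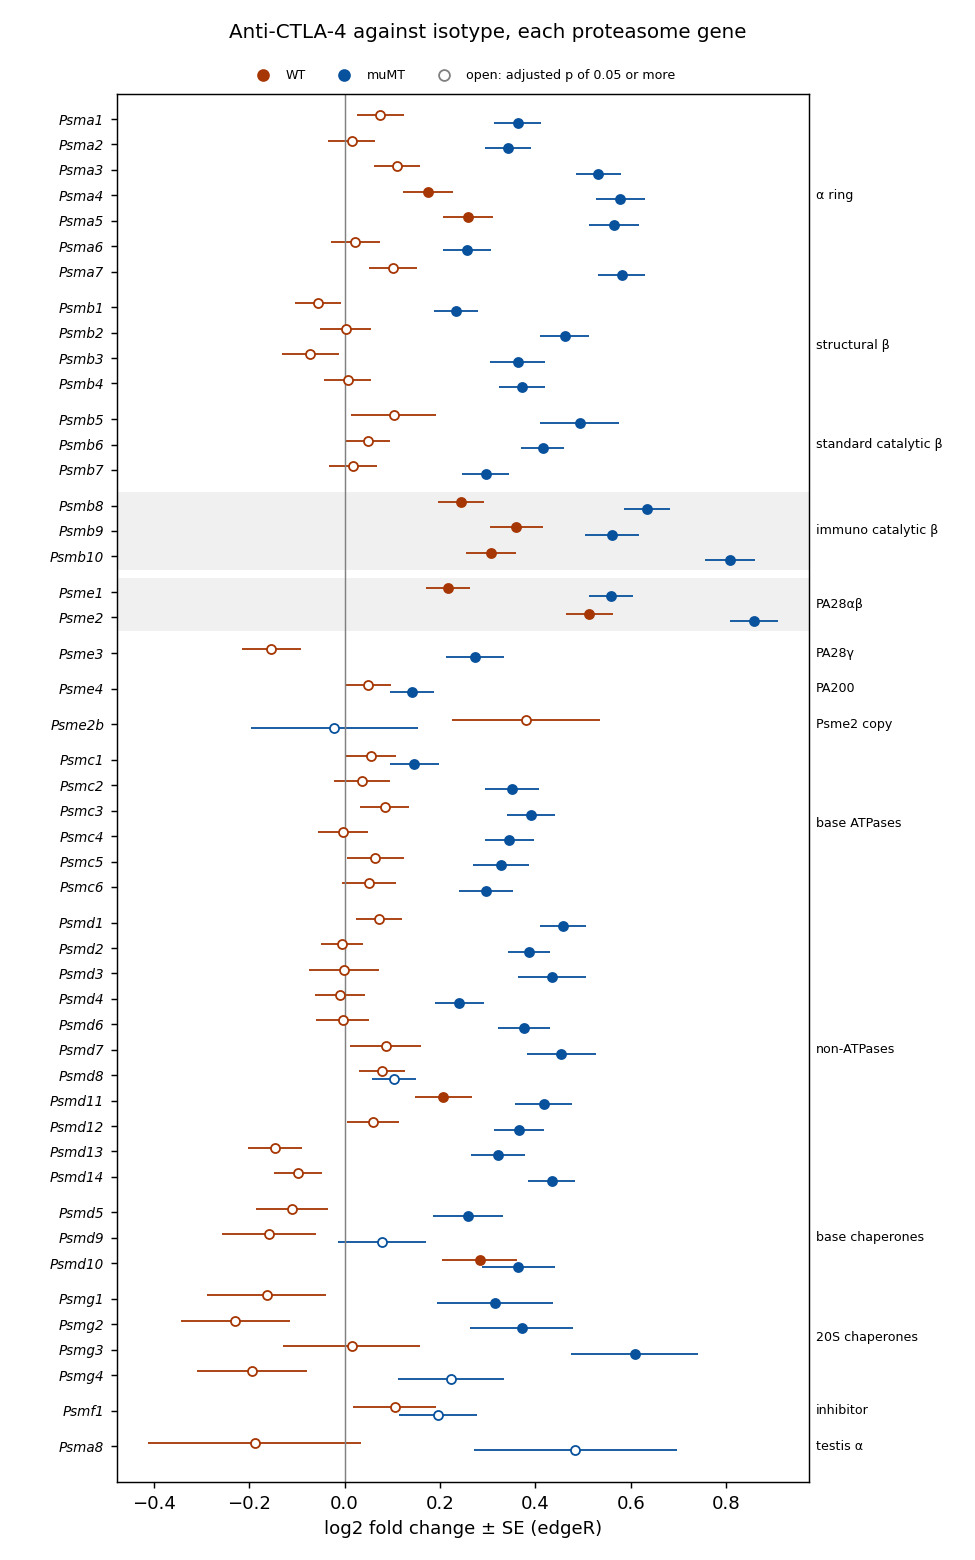
Log2 fold change of anti-CTLA-4 against isotype (horizontal axis, point with SE bar from edgeR) for each of the 48 tested proteasome genes, in WT and in muMT, ordered by role; filled points passed an adjusted p of 0.05. In WT the filled points are the 5 shaded immunoproteasome and PA28 genes and 4 others, and in muMT 42 of 48 are filled, all to the right of 0.

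The anti-CTLA-4 effect differed between hosts for most of the complex. In the interaction contrast, WT effect minus muMT effect, 40 of 48 members were called lower, a WT effect below the muMT effect, against 19.8% of all genes, and none higher, against 17.5%. Psmd14 differed most firmly of the other members, by -0.53 ± 0.071 (SE), adjusted p = 4.47e-07, with 106 and 101 CPM under isotype and 140.4 and 139.7 under anti-CTLA-4 in muMT hosts, and 111 and 111 against 102 and 106 in WT hosts. Psma7 differed by -0.48 ± 0.07 (SE), adjusted p = 2.2e-06, Psmd2, the other scaffold of the base, by -0.39 ± 0.062 (SE), adjusted p = 7.49e-06 and Psma3 by -0.42 ± 0.068 (SE), adjusted p = 9.07e-06. The standard catalytic genes differed by -0.37 ± 0.065 (SE), adjusted p = 3.53e-05 (Psmb6), -0.28 ± 0.07 (SE), adjusted p = 0.00218 (Psmb7) and -0.39 ± 0.12 (SE), adjusted p = 0.0115 (Psmb5). Psmb5 was not called when muMT anti-CTLA-4 replicate 2 (adjusted p = 0.112), WT isotype replicate 1 (0.0747) or WT anti-CTLA-4 replicate 1 (0.0815) was left out.

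The immunoproteasome genes differed between hosts by about as much as the rest. Their median difference was -0.35 and that of the 43 others -0.37. Psmb10 differed by -0.50 ± 0.074 (SE), adjusted p = 2.61e-06, Psmb8 by -0.39 ± 0.068 (SE), adjusted p = 3.15e-05, Psme2 by -0.35 ± 0.07 (SE), adjusted p = 0.000211 and Psme1 by -0.34 ± 0.066 (SE), adjusted p = 0.000117. Psmb9 had the smallest difference of the 5, -0.20 ± 0.079 (SE), adjusted p = 0.0444. That call was lost with DESeq2 size factors (0.0663), with library size alone (0.102), without a filter (0.0582), with the DESeq2 Wald test (0.116), with a replicate block (0.0636), with a minimum fold of 1.1 (0.184) and without either anti-CTLA-4 library of either host or WT isotype replicate 1 (0.0532 to 0.19). The lead of the immunoproteasome median over that of the other members was 0.28 in WT and 0.27 in muMT. These are descriptions of medians, and the leads were not tested against each other.

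Some members showed no called difference between the hosts' effects: Psme4 (-0.092 ± 0.066, SE), Psmf1 (-0.091 ± 0.12), Psmd8 (-0.025 ± 0.067), Psmd9 (-0.24 ± 0.14), Psmd10 (-0.081 ± 0.11), Psmc1 (-0.092 ± 0.073), Psma8 (-0.67 ± 0.31) and Psme2b (0.40 ± 0.23). A missed threshold does not show that their effects were alike. For Psme3 the difference was -0.43 ± 0.087 (SE), adjusted p = 0.000228. Its values were 49.2 and 53.5 CPM under isotype and 60.9 and 63.2 under anti-CTLA-4 in muMT hosts, and 53.7 and 53.0 against 49.0 and 46.9 in WT hosts, so that the WT anti-CTLA-4 libraries were the lowest and the muMT anti-CTLA-4 libraries the highest. Cycling genes differed in the same direction, 5 of 6 called lower, and in the other direction fibroblast and mural genes (6 of 6 higher), the T cell and NK cell lists (4 of 8 higher each) and macrophage genes (4 of 10 higher), and their part was not tested.

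**Figure D3:**
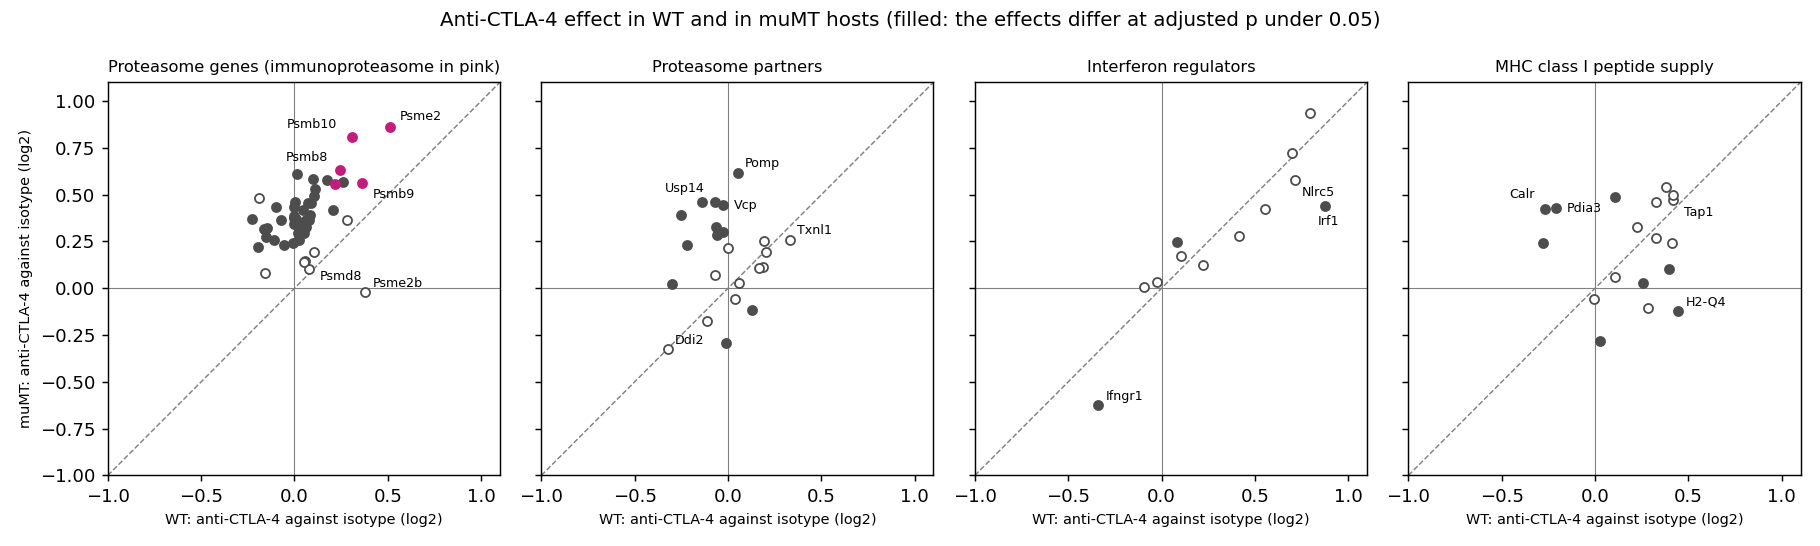
Log2 fold change of anti-CTLA-4 against isotype in WT (horizontal axis) and in muMT (vertical axis), 1 point per gene, for the 48 proteasome genes and 3 lists of related genes; the dashed line marks equal effects and filled points differ between hosts at an adjusted p under 0.05. All proteasome genes but Psme2b sit above the line, with medians of 0.049 in WT and 0.37 in muMT, whereas Tap1 and Nlrc5 lie near it.

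Under isotype antibody, WT and muMT hosts differed in the immunoproteasome. The other members were called no more often than all genes, with no common direction. WT against muMT, 12 members were called higher and 7 lower, against 19.9% and 19.2% of all genes. All 5 immunoproteasome genes were among the 12. Psmb10 was higher in WT by 0.38 ± 0.053 (SE), adjusted p = 1.02e-06, Psmb9 by 0.35 ± 0.057 (SE), adjusted p = 8.3e-06, Psme2 by 0.34 ± 0.05 (SE), adjusted p = 2.4e-06 and Psmb8 by 0.31 ± 0.049 (SE), adjusted p = 5.34e-06. Psme1 was higher by 0.17 ± 0.047 (SE), adjusted p = 0.00491, and was not called without WT isotype replicate 1 (adjusted p = 0.0641). The median was 0.34 for these 5 and 0.05 for the 43 others.

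Of the 43 others, 7 were called higher and 7 lower in WT under isotype, no more often than all genes (19.9% and 19.2%). Psmd8 was the firmest, at -0.54 ± 0.047 (SE), adjusted p = 1.66e-10, and the ATPase genes Psmc1 and Psmc3 were lower, at -0.30 ± 0.052 and -0.19 ± 0.051 (SE). Psmb6 was lower, at -0.19 ± 0.046 (SE), adjusted p = 0.00172 and Psmb3 at -0.18 ± 0.058 (SE), adjusted p = 0.0136, while Psmb5 and Psmb7 were not called (-0.077 ± 0.087 and -0.11 ± 0.05). Psme4 was higher in WT by 0.30 ± 0.047 (SE), adjusted p = 4.37e-06, and Psmd1, Psma1 and Psmd11 by 0.18 ± 0.048, 0.18 ± 0.049 and 0.19 ± 0.06 (SE). The calls of Psmb3 and Psmd11 were lost without muMT isotype replicate 1 (adjusted p = 0.125 and 0.185) or WT isotype replicate 2 (0.248 and 0.111), and that of Psmc3 without the latter (0.0701). With a minimum fold of 1.1, 8 members were called in place of 19. Endothelial genes were higher in WT isotype (5 of 6, 244 to 249 CPM in sum against 142 to 146), as were reads in no gene. Cycling genes summed to 528 to 558 CPM against 431 to 454, with 3 of 6 called higher and 1 lower. Of 8 dendritic cell genes 3 were called higher and 1 lower. Oligodendrocyte genes (5 of 6), fibroblast and mural genes (4 of 6, 250.3 to 260 CPM in sum against 360 to 364) and T cell genes (3 of 8) were lower, and the part of these in the proteasome result was not tested.

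Under anti-CTLA-4 the hosts differed across the standard proteasome, and 3 of the 5 immunoproteasome genes were called, in both directions. WT against muMT, 38 of 48 members were called lower, against 28.7% of all genes, and 3 higher, against 27.4%. All 4 structural beta genes, all 3 standard catalytic genes, all 6 base ATPases, 10 of 11 non-ATPases and 6 of 7 alpha ring genes were lower in WT. Psmb3 was lower, at -0.62 ± 0.058 (SE), adjusted p = 2.16e-10, with 76.5 and 76.2 CPM in WT and 115 and 119 in muMT, and Psmb2 at -0.59 ± 0.052 (SE), adjusted p = 6.02e-11. Psmb6 was lower, at -0.55 ± 0.046 (SE), adjusted p = 1.43e-11, Psmb5 at -0.47 ± 0.085 (SE), adjusted p = 2.37e-05 and Psmb7 at -0.39 ± 0.05 (SE), adjusted p = 7.83e-08. Psmc3 was lower, at -0.49 ± 0.05, Psme3 at -0.37 ± 0.062 and Psmf1 at -0.28 ± 0.084 (SE), and Psmf1 was not called without muMT anti-CTLA-4 replicate 1 (adjusted p = 0.0864). Psme4 was the opposite, higher in WT by 0.21 ± 0.046 (SE), adjusted p = 0.000276.

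Of the immunoproteasome genes, Psmb8 and Psme2 were not called (-0.078 ± 0.048 (SE), adjusted p = 0.172, and -0.004 ± 0.049 (SE), adjusted p = 0.953). Psmb8 was called lower in WT with unstranded counts (adjusted p = 0.00484) and in a fit of these 4 libraries alone (0.00526). Psme1 was lower in WT, at -0.17 ± 0.046 (SE), adjusted p = 0.00212, and Psmb9 was higher by 0.15 ± 0.055 (SE), adjusted p = 0.0186. Psmb10 was lower, at -0.12 ± 0.052 (SE), adjusted p = 0.0477. The Psmb10 and Psmb9 calls were weak: Psmb10 was lost with either DESeq2 setting (0.0774 for its size factors, 0.127 for its Wald test), a replicate block (0.0619) or any anti-CTLA-4 library left out (0.0894 to 0.242), and Psmb9 without either muMT anti-CTLA-4 library (0.188 and 0.0579) or WT anti-CTLA-4 replicate 2 (0.214), or with unstranded counts (0.282). With a minimum fold of 1.1 none of the 5 was called in this comparison (0.147 for Psme1, 0.269 for Psmb9 and 0.473 for Psmb10). The median was -0.078 for the 5 genes and -0.36 for the 43 others. Cycling genes were lower in WT here (5 of 6, 441 to 445 CPM in sum against 524 to 525), as were neutrophil genes (4 of 5) and oligodendrocyte genes (4 of 6). Fibroblast and mural genes (5 of 6), endothelial genes (4 of 6) and macrophage genes (8 of 10) were higher, reads in no gene were more frequent, and the part of these in the proteasome result was not tested. All comparisons of a host share its libraries, so these 2 host comparisons and the treatment effects are not independent of each other.

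**Figure D4:**
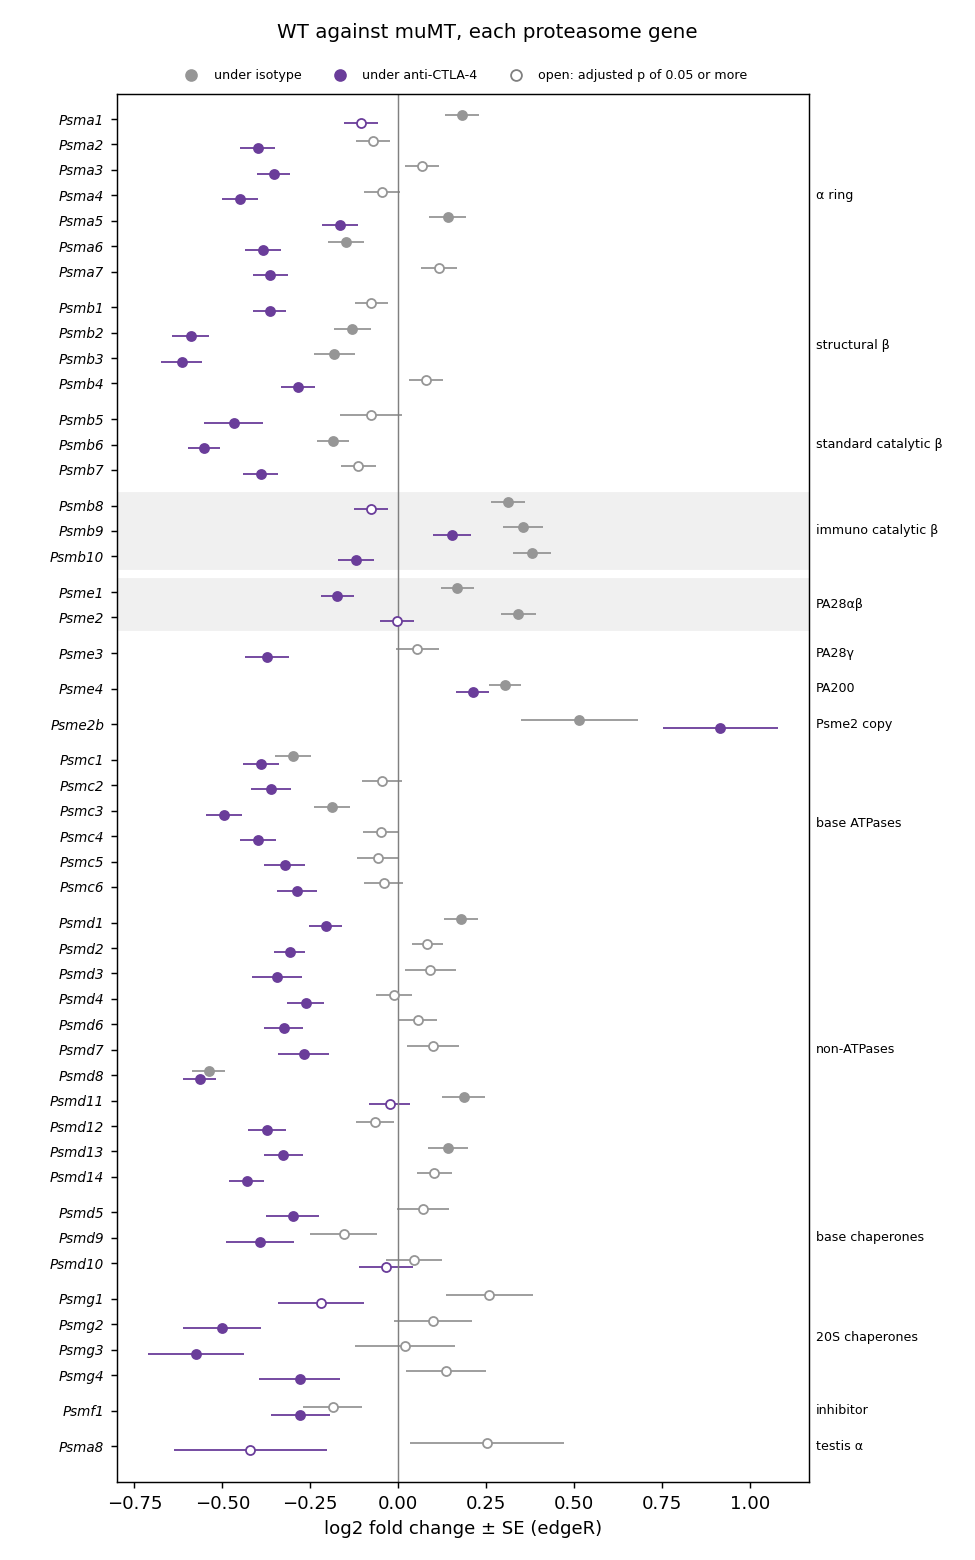
Log2 fold change of WT against muMT (horizontal axis, point with SE bar from edgeR) for each of the 48 tested proteasome genes under isotype and under anti-CTLA-4, ordered by role; filled points passed an adjusted p of 0.05. Under anti-CTLA-4, 38 members are called lower in WT, and the 5 shaded immunoproteasome genes are all called higher under isotype and lie between -0.17 and 0.15 under anti-CTLA-4.

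Psmd8 differed between hosts under both antibodies, with no called effect of the antibody in either host. It had 198 and 199 CPM under isotype and 216 and 210.3 under anti-CTLA-4 in muMT hosts, and 141 and 132 against 145 and 143 in WT hosts. All 4 WT values lay under all 4 muMT values, and the log2 change with the antibody was 0.079 ± 0.048 in WT and 0.10 ± 0.047 in muMT (SE). The host difference was -0.54 under isotype and -0.56 ± 0.047 (SE), adjusted p = 2.03e-11, under anti-CTLA-4. Psme4 also kept its host difference, with 166 and 159 CPM under isotype and 181 and 177 under anti-CTLA-4 in muMT hosts, and 197 and 204 against 208 and 207 in WT hosts, and again the WT and muMT values did not overlap. Psme2b, an intronless copy of Psme2, had 4.11 and 4.46 CPM under isotype and 3.56 and 4.90 under anti-CTLA-4 in muMT hosts, and 6.79 and 5.47 against 7.33 and 8.60 in WT hosts. It was called higher in WT under both antibodies (0.51 ± 0.17 and 0.92 ± 0.16, SE), the first call being lost without muMT isotype replicate 1 (adjusted p = 0.0662) or WT isotype replicate 1 (0.204). Reads that match Psme2 and its copy equally were not counted for either, so the values of both genes are uncertain to that extent.

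Set against each other within a library, each immune subunit gene was higher relative to its standard partner in every anti-CTLA-4 library than in every isotype library of its host. The log2 ratio of Psmb10 to Psmb7 reads was -0.31 and -0.35 under isotype and 0.22 and 0.14 under anti-CTLA-4 in muMT, and 0.21 and 0.11 against 0.41 and 0.49 in WT. That of Psmb9 to Psmb6 was -1.84 and -1.82 under isotype and -1.72 and -1.65 under anti-CTLA-4 in muMT, and -1.28 and -1.30 against -1.0 and -0.95 in WT. In these pairs the ratio was higher with anti-CTLA-4 in each host without overlap, by 0.29 in WT and 0.51 in muMT for Psmb10 to Psmb7 (SD within groups 0.054) and by 0.31 and 0.15 for Psmb9 to Psmb6 (SD 0.032). The Psmb8 to Psmb5 ratio was 3.28 and 3.32 under isotype and 3.54 and 3.34 under anti-CTLA-4 in muMT, and 3.70 and 3.68 against 3.90 and 3.77 in WT, higher by 0.15 in WT and 0.14 in muMT (SD 0.087). The exact permutation test of treatment within host, two-sided, gave p = 0.0556 for each of the 3 pairs, also after adjustment over the 3, and this is the smallest p that its 36 arrangements allow. Without muMT anti-CTLA-4 replicate 1 the muMT change of Psmb8 to Psmb5 was 0.043, and without replicate 2 it was 0.24, and without WT anti-CTLA-4 replicate 1 the WT change was 0.078. Per kilobase, Psmb8 exceeded Psmb5 by 5.44 to 7.89 times over the 4 group means, Psmb9 ran at 0.166 to 0.3 of Psmb6, and Psmb10 at 0.704 to 1.21 of Psmb7.

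The 5 immunoproteasome genes together took 14.6% and 14.8% of all reads of the 49 genes under isotype and 17.8% in both anti-CTLA-4 libraries of muMT hosts, and 18.2% and 17.2% against 20.6% in both in WT hosts. The 95% Wilson intervals, which cover counting error only, were narrow, for example 14.5% to 14.8% in the first muMT isotype library. The share was thus lowest in muMT isotype and highest in WT anti-CTLA-4, and muMT anti-CTLA-4 and WT isotype overlapped. All 49 genes together took 0.435% and 0.426% of reads in genes under isotype and 0.551% and 0.55% under anti-CTLA-4 in muMT hosts, and 0.452% and 0.442% against 0.47% and 0.471% in WT hosts. On that measure muMT anti-CTLA-4 stood above every other group.

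**Figure D5:**
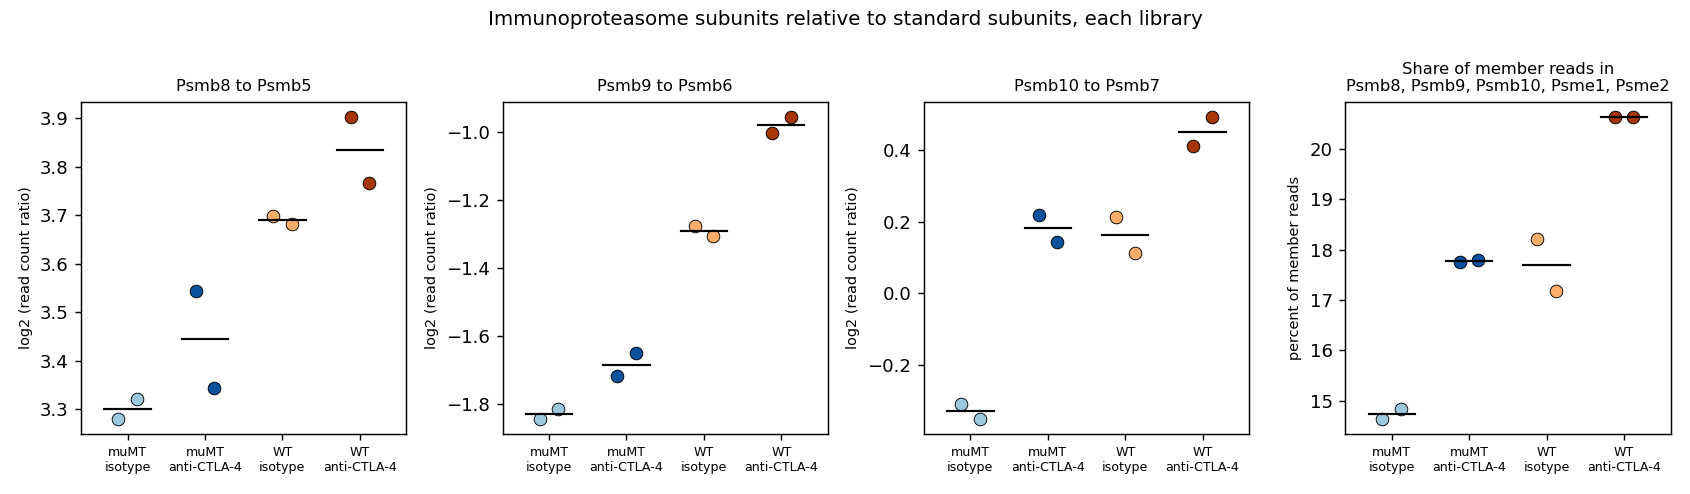
Log2 ratio of the reads of each immune catalytic subunit gene to those of its standard partner (first 3 panels) and the percentage of proteasome reads in Psmb8, Psmb9, Psmb10, Psme1 and Psme2 (last panel), 1 point per library with a bar at the group mean; vertical axes do not start at 0. Each ratio is higher with anti-CTLA-4 than with isotype in its host, and the share of reads runs from 14.6% in muMT isotype to 20.6% in WT anti-CTLA-4.

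Genes that act on or with the proteasome were read from lists of known partners. Of 23 tested partners (Paaf1 was not among the listed genes), 13 were called higher and 3 lower with anti-CTLA-4 in muMT (median 0.22), against 22.1% and 20.4% of all genes. In WT 5 were called higher and 4 lower (median -0.025), shares near the 14.7% and 15.9% of all genes. Pomp, the chaperone that brings beta subunits into the core, rose in muMT by 0.62 ± 0.059 (SE), adjusted p = 5.64e-10 and stood at 0.053 ± 0.059 in WT, a difference of -0.56 ± 0.084 (SE), adjusted p = 2.74e-06. Vcp, the ATPase that extracts ubiquitinated proteins, and Usp14, the deubiquitinase of the cap, rose in muMT by 0.44 ± 0.044 and 0.46 ± 0.055 (SE), and the effects differed between hosts by -0.47 ± 0.063 and -0.53 ± 0.079. In WT the firmest changes were a rise of the cap-associated thioredoxin Txnl1 (0.33 ± 0.058) and lower levels of Ddi2 (-0.32 ± 0.071), the protease that activates NFE2L1 (lower in muMT too, at -0.33 ± 0.069), of Midn (-0.30 ± 0.068) and of Ubqln1 (-0.22 ± 0.05). Nfe2l1 itself stood at 0.17 ± 0.058 in WT, called higher, and 0.11 ± 0.057 in muMT, not called, and the difference was not called (0.058 ± 0.081). Between hosts, Zfand2a and Zfand5, stress-induced proteasome-binding proteins, were lower in WT under isotype (-0.79 ± 0.047 and -0.57 ± 0.051) and under anti-CTLA-4 (-0.51 ± 0.047 and -0.47 ± 0.051), while Ecpas was higher by 0.42 ± 0.049 and 0.49 ± 0.049. The list had 9 genes higher and 5 lower in WT under isotype (all genes 19.9% and 19.2%), and 1 higher and 12 lower under anti-CTLA-4 (all genes 27.4% and 28.7%). Of the 6 genes that supply or activate ubiquitin, 3 were called higher and 0 lower in muMT (median 0.080). In WT 1 was called higher and 1 lower (median -0.036), against the same shares of all genes. Uba1, the main activating enzyme, rose in muMT (0.42 ± 0.048) and stood at -0.073 ± 0.048 in WT, with a difference of -0.49 ± 0.067 (SE), adjusted p = 8.3e-07. Ubb rose alike in both hosts (0.16 in each), and Rps27a fell in WT (-0.36).

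Of 12 tested interferon regulators of the immunoproteasome, 7 were called higher and 1 lower with anti-CTLA-4 in WT (median 0.32), where 14.7% and 15.9% of all genes were, and 8 higher and 1 lower in muMT (median 0.26), where 22.1% and 20.4% were. Irf1, the factor known to act on the shared Psmb9 and Tap1 promoter, rose more in WT than in muMT (0.87 ± 0.043 and 0.44 ± 0.043, difference 0.43 ± 0.06 (SE), adjusted p = 1.02e-06), the reverse of the proteasome genes. Nlrc5, the activator of MHC class I genes, rose by 0.71 ± 0.045 and 0.58 ± 0.046, and Jak2, a kinase of interferon receptors, by 0.55 ± 0.048 and 0.42 ± 0.048 (SE, WT and muMT in order). Nlrc5 had 166 and 165 CPM under isotype and 241 and 254 under anti-CTLA-4 in muMT hosts, and 253 and 241 against 410.2 and 401 in WT hosts, and the difference of its effects, 0.14 ± 0.065, was not called. Ifngr1, a chain of the interferon gamma receptor, fell in both hosts (-0.34 ± 0.046 and -0.63 ± 0.045). Under both antibodies Nlrc5 and Stat2 were higher in WT than in muMT, under anti-CTLA-4 by 0.71 ± 0.045 and 0.56 ± 0.058. There Psmb8 and Psme2 had no called host difference, Psmb9 was called higher in WT, and Psme1 and Psmb10 were called lower. A link between the regulators and these genes was not tested.

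A list of 18 genes covered peptide transport, trimming and loading for MHC class I, and class I molecules themselves. Of these, 10 were called higher and 3 lower with anti-CTLA-4 in WT, against 14.7% and 15.9% of all genes. In muMT 11 were called higher and 2 lower, against 22.1% and 20.4%. The transporter gene Tap1, the neighbour of Psmb9, rose by 0.42 ± 0.043 in WT and 0.47 ± 0.043 in muMT (SE), and the difference, -0.056 ± 0.061, was not called. Its values were 242 and 246 CPM under isotype and 338 and 339 under anti-CTLA-4 in muMT hosts, and 329 and 319 against 428 and 437 in WT hosts. Tapbp, which encodes tapasin, rose by 0.42 ± 0.043 and 0.50 ± 0.043. Under anti-CTLA-4, Tap1 was higher in WT by 0.35 ± 0.043, beside 0.15 ± 0.055 for Psmb9. The difference between hosts was called in 4 genes each way, against 17.5% of all genes higher and 19.8% lower. The chaperones Calr, Pdia3 and Canx, which also fold other glycoproteins, differed by -0.69 ± 0.059, -0.64 ± 0.059 and -0.52 ± 0.062, rising in muMT and falling in WT. H2-Q4 differed the other way, by 0.57 ± 0.067, though members of this gene family share reads and its value is uncertain.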

How the data were processed

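Stranded total RNA libraries of sorted phagocytes were analysed, 8 in 4 groups of 2. The authors deposited raw read counts per gene in the layout of STAR's gene counts. Per the submitters' processing notes, cutadapt 5.0, STAR 2.7, mm39 and DESeq2 1.42.1 were used. The annotation is not given in the sources used here, and reads mapping to several places were not counted. The reverse-strand column was used (23.3 to 26.5 times the forward total), with summary rows set aside.

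Counts were scaled by TMM, filtered with filterByExpr and modelled in R 4.3.3 by edgeR 4.0.16, whose robust quasi-likelihood fit had 4 group means over 8 libraries, with 4 residual degrees of freedom and a common biological coefficient of variation of 4.11%. P-values were adjusted by Benjamini-Hochberg over all 16608 genes tested, and called under 0.05. SE is the log2 fold change over the square root of F. The chi-square per degree of freedom between the libraries of a group was above counting noise in each group. It was 7.73 in muMT isotype, 4.87 in WT isotype, 2.06 in WT anti-CTLA-4 and 1.77 in muMT anti-CTLA-4. The fit shares its estimate of the spread over all groups. Exon lengths came from GENCODE M21 on GRCm38, and promoters from RefSeq on GRCm38.p6. The code was run on simulated counts with a small part of the genes raised in WT anti-CTLA-4. That part is much smaller than the share of genes called here, so the run checks the code and not these calls.

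The immunoproteasome genes, their partners Psmb5, Psmb6 and Psmb7, and Psme3, Psme4 and Psmf1 are named throughout. Per comparison the text also names up to 4 other members called higher and 4 lower with the smallest p, and up to 4 genes of a related list. Further members and genes named for their role or range were chosen after their values were seen. Members and lists were chosen with earlier results of these data known. Alternatives were DESeq2 1.42.0 (Wald test or size factors), library size alone, no filter, the unstranded column, a replicate block, no robust dispersion, a minimum fold of 1.1, a fit of the compared libraries and each library left out. Some genes that this rule or the marker lists would name are not reported here.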

Additional observations from a re-analysis of the deposited data

Results flagged for a closer look

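For 13 named members the anti-CTLA-4 effect differed between WT and muMT hosts by edgeR's interaction test with Benjamini-Hochberg adjustment, each effect being lower in WT. Of all genes, 19.8% were called lower in this contrast. The log2 difference, WT minus muMT, was -0.39 for Psmb8, -0.20 for Psmb9, -0.50 for Psmb10, -0.34 for Psme1 and -0.35 for Psme2. For the standard catalytic genes it was -0.39 for Psmb5, -0.37 for Psmb6 and -0.28 for Psmb7. It was -0.43 for Psme3, -0.53 for Psmd14, -0.48 for Psma7, -0.39 for Psmd2 and -0.42 for Psma3. Psmd14, Psma7, Psmd2 and Psma3 were named for having the smallest p in this same test, so their calls were fixed by that choice. Psmb9 (adjusted p = 0.0444) lay closest to the threshold. Groups of 2 libraries allow no check for an outlying library.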

How the results depend on the processing

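Of 84 alternative counts of called members over the 5 comparisons, 81 stayed within 1.5 times. With a minimum fold of 1.1, 8 members were called between hosts under isotype, where 19 were without one. Leaving out 1 library at a time, counts ran from 7 to 14 in WT (14 without either muMT isotype library), 39 to 43 in muMT, 33 to 38 for the difference, 13 to 18 for the hosts under isotype and 37 to 42 under anti-CTLA-4. The immunoproteasome median minus that of the other members ran from 0.23 to 0.34 in WT and from 0.26 to 0.35 for the hosts under isotype. For the difference of the effects it was 0.020 and ran from -0.026 to 0.034, on either side of 0 (-0.024 and -0.00903 without muMT isotype replicate 1 and 2, -0.020 without muMT anti-CTLA-4 replicate 1, -0.026 without WT isotype replicate 2, -0.0185 without WT anti-CTLA-4 replicate 1). Each is smaller in size than 0.042, the pooled SD within groups of the median lead taken per library. That SD describes single libraries and is not the SD of this difference. The muMT change of the log2 ratio ran from 0.043 to 0.24 for Psmb8 to Psmb5 and from 0.11 to 0.18 for Psmb9 to Psmb6. The cause of these shifts was not tested. A fit with a replicate block called 9, 42, 37, 17 and 40 members in the comparisons in the order of the report, but replicate numbers did not pair the libraries (r between -0.24 and 0.061 for deviations of same-numbered libraries). Scaling by library size alone called 2 of the other members lower in WT beside 4 higher. Of the named members' values, 61 lost a call under an alternative, 11 gained one and none was counted as reversed. Another 10 changed sign while called in neither fit and were counted as the same. A fit of the compared libraries for the difference uses all 8 and so adds nothing. Depth limits what can be said of Psma8 and Psmb11, which had few reads.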
